A study of Mus musculus with 4 samples.

Results

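The genes described here are 9 named genes whose array signal was at least 2-fold higher in colonies grown from short-term haematopoietic stem cells (ST-HSC) than in colonies grown from long-term haematopoietic stem cells (LT-HSC), with a CreER transduction and with a mock transduction alike. They are Orm1, Gal, Csn2, Scel, Slco4c1, Tifab, Tnfsf13b, Il18 and Ap1s2, out of 19938 genes that the arrays measured under 1 symbol. They were selected on the measured ST-HSC minus LT-HSC differences in each transduction, so these differences are given as a description and were not tested. Each of the 9 had 1 probe set, the group of probes that reports a gene.

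RNA came from mouse colony-forming cells on a C57BL/6 background, with 1 Affymetrix array for each of 4 groups: ST-HSC-derived cells transduced with CreER, ST-HSC-derived cells transduced with mock, LT-HSC-derived cells transduced with CreER and LT-HSC-derived cells transduced with mock. CreER is a Cre recombinase that has been made dependent on an oestrogen receptor ligand. The series title speaks of conditional MLL-ENL, a leukaemia fusion protein; the sources used here do not say whether mock-transduced cells carry the conditional allele or whether the recombinase was switched on. All colonies grew in methylcellulose with serum, GM-CSF, SCF, IL-6 and IL-3, so the RNA is that of the descendants of the stem cells, mostly myeloid cells, and not of the sorted stem cells. Nor do they say how many animals or colonies stand behind each array. With 1 array a group, differences between 2 arrays lack any replicate, and their precision is limited by that number.

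As background, ST-HSC and LT-HSC are distinguished by the duration of the blood formation they support in a transplanted host, and both give myeloid colonies under these cytokines. IL-3 and GM-CSF signal through the transcription factor STAT5, and IL-6 through STAT3. The 9 genes do not form a single pathway. Tnfsf13b, Il18 and Gal encode secreted signals, Orm1 and Csn2 encode other secreted proteins, Slco4c1 encodes a membrane transporter, and Tifab, Ap1s2 and Scel encode proteins that work inside the cell.

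Values are log2 expression, so a difference of 1 is 2-fold. A signal floor, the median of an array over probe sets with 1 symbol, lay between 8.07 and 8.13 on the 4 arrays, and the size of a difference is uncertain where a level lies under it. Among 9709 genes past the floor on both ST-HSC arrays, 12 were 2-fold or more higher on the ST-HSC arrays with both transductions, or 0.124%. The 9 genes are among these 12 by construction, and nothing is read from that count. In either transduction alone, 0.549% of 10201 genes with CreER and 0.402% of 10209 genes with mock were 2-fold or more higher on the ST-HSC array. The reverse direction was more common: 1.39% of genes with CreER and 2.72% with mock were 2-fold or more lower on the ST-HSC array, and 122 of 9611 genes, or 1.27%, with both transductions. The 9 genes lie on 9 different chromosomes.

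The promoters of 3 of the 9 genes are shown first, because they hold a match to a motif of a factor that works in cytokine-stimulated cells. Of the 9 genes, 8 were found in the RefSeq promoter table (build GRCm38.p6), with 9 start sites, since Tnfsf13b has a pair. The 250 bases before each start site were searched on both strands for the STAT palindrome TTCNNNGAA, the C/EBP motif TTNNGCAA, the PU.1 core GAGGAA, the FOS and JUN binding site TGANTCA (the AP-1 site) and the TATA box TATAAA. The sequences below run 5′ to 3′ on the gene's own strand and end at the base before the start site, and the capitals mark the STAT palindrome in Csn2 and the AP-1 site in Tnfsf13b and Scel.
Csn2, chr5:87699426-87699675, minus strand: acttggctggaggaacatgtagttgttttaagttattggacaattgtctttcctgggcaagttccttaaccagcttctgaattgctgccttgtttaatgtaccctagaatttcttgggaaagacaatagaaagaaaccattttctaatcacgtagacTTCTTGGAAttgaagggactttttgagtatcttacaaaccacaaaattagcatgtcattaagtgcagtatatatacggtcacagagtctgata
Tnfsf13b, chr8:10006383-10006632, plus strand: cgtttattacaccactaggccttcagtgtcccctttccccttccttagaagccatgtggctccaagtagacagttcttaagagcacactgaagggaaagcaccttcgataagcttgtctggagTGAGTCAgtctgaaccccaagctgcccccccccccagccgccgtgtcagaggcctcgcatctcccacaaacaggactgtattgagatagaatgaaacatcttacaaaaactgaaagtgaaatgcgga
Scel, chr14:103513091-103513340, plus strand: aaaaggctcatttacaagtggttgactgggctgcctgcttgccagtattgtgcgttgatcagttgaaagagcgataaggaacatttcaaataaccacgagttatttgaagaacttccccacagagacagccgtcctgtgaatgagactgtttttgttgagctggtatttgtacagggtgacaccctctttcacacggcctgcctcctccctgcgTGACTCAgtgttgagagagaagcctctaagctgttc

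The match in Csn2 begins 93 bases before the start site, that in Tnfsf13b 127 bases before it and that in Scel 36 bases before it. The window of the other Tnfsf13b start site, not shown, held no match to any motif searched. Over all 32851 start sites of the table, 7.02% held the STAT palindrome and 6.75% the AP-1 site in the same window. Csn2 also held the PU.1 core, as did 23.3% of all start sites, and Il18 held the TATA box letters, as did 12.4%. The C/EBP motif, held by 9.56% of all start sites, was in none of the 9 windows, and no matches of different motifs overlapped. The windows differed widely in base composition, with a GC content of 70.0% in Ap1s2, 66.4% in Slco4c1 and 62.4% in Gal, against 36.8% in Csn2 and 35.6% in Il18, where the median of all start sites was 52.4%. No motif searched was thus shared by most of the 9 genes, and a match describes letters only.

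Tnfsf13b encodes BAFF, a TNF family ligand that sustains B cells and is made by myeloid cells. Its level was 10.58 with CreER and 10.11 with mock in ST-HSC-derived cells, against 9.22 with CreER and 8.42 with mock in LT-HSC-derived cells. All 4 levels were past the floor, and the differences towards ST-HSC were 2.57-fold (CreER) and 3.22-fold (mock). The floor is an array median, not a detection limit, and the LT-HSC mock level lay closest to it. The BAFF receptors did not share this pattern. Tnfrsf13b, which encodes TACI, was at 9.61 with CreER and 9.47 with mock in ST-HSC-derived cells, against 9.66 and 9.58 in LT-HSC-derived cells. Tnfrsf13c, which encodes the BAFF receptor, differed by -0.26 with CreER and -0.20 with mock, and Tnfrsf17, which encodes BCMA, was under the floor on all 4 arrays. None of the 8 other measured genes of the system, which include the non-canonical NF-κB genes Nfkb2, Relb, Map3k14 and Traf2, was 2-fold different in either transduction. Of these 8, 7 passed the floor on an array, and the shares over all genes were 0.402% to 2.72%, so nothing is read from this count. Their median difference was -0.04 with CreER and -0.03 with mock, beside -0.04 and 0.03 over all genes.

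Il18 encodes interleukin 18, an IL-1 family cytokine that is made as a precursor and cut by caspase 1. It was at 8.25 with CreER and 8.30 with mock in ST-HSC-derived cells, against 7.03 with CreER and 7.28 with mock in LT-HSC-derived cells. The ST-HSC levels stood just past the floor and the LT-HSC levels under it. None of the other 8 genes stood so close to the floor on the ST-HSC arrays, and the size of the Il18 differences, 1.21 with CreER and 1.02 with mock, is uncertain. Pycard, which encodes the inflammasome adaptor ASC, was also higher in ST-HSC-derived cells, by 0.60 with CreER and 0.40 with mock, short of 2-fold. Casp1 was higher by 0.66 with CreER and by 0.08 with mock. The related cytokine gene Il1b lay on the other side, at 9.62 with CreER and 9.97 with mock in ST-HSC-derived cells, against 11.60 and 10.96 in LT-HSC-derived cells. The receptor chain gene Il18rap was lower in ST-HSC-derived cells by 1.15 with mock and by 0.37 with CreER. Of 12 other measured genes of the IL-18 system, 0 were 2-fold higher in ST-HSC-derived cells in either transduction, and the 2-fold lower ones were Il1b with CreER and Il18rap with mock. Of these 12, 11 passed the floor on an array. Over all genes 0.549% with CreER and 0.402% with mock were 2-fold higher, and 1.39% and 2.72% lower, so nothing is read from these counts.

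Gal encodes the neuropeptide galanin. Its level was 10.50 with CreER and 9.88 with mock in ST-HSC-derived cells, against 9.24 with CreER and 8.06 with mock in LT-HSC-derived cells. The LT-HSC mock level stood just under the floor, and the 4 arrays were spread over more than 2 log2 units. Of the galanin receptors, Galr1 and Galr2 were under the floor on all 4 arrays, and Galr3 was at 8.71 with CreER and 8.68 with mock in ST-HSC-derived cells, against 8.95 and 8.69 in LT-HSC-derived cells. Galp, a galanin-like peptide gene, lay close to the floor throughout, between 8.01 and 8.14.

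Orm1 encodes orosomucoid, an acute-phase plasma protein of the lipocalin family that is also stored by neutrophils. It was at 11.31 with CreER and 10.55 with mock in ST-HSC-derived cells, against 10.05 with CreER and 8.75 with mock in LT-HSC-derived cells. The order of the arrays was the same as for Gal. The close relatives Orm2 and Orm3 were under the floor on all 4 arrays, at 5.65 to 6.14. The Orm genes share much of their sequence, and a contribution of the other copies to the Orm1 probe set was not tested. Other acute-phase and lipocalin genes that were well expressed showed no 2-fold difference. Lcn2, which encodes the siderophore-binding lipocalin of neutrophil granules, was at 14.11 with CreER and 14.03 with mock in ST-HSC-derived cells, against 13.98 and 13.97 in LT-HSC-derived cells. Hp, the haptoglobin gene, differed by -0.27 with CreER and 0.37 with mock, and Saa3, a serum amyloid gene, by -0.44 and 0.06. Il6ra, which encodes the IL-6 receptor, was higher in ST-HSC-derived cells by 0.53 with CreER and by 0.65 with mock. Of the 14 other measured genes on this list, 6 passed the floor on an array. None was 2-fold different in either direction in either transduction, beside shares of 0.402% to 2.72% over all genes. With so few genes, nothing is read from this count.

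Csn2 encodes beta-casein, a milk protein whose gene is a classical STAT5 target in the mammary gland through the promoter palindrome shown above. Its level was 9.46 with CreER and 9.12 with mock in ST-HSC-derived cells, against 7.55 with CreER and 7.23 with mock in LT-HSC-derived cells. Both ST-HSC levels were past the floor and both LT-HSC levels under it. The size of the differences, 1.91 with CreER and 1.90 with mock as measured, is therefore uncertain. The other casein genes Csn1s1, Csn1s2a, Csn1s2b and Csn3 were under the floor on all 4 arrays and ranged from 4.41 to 6.29. Stat5a was at 9.88 with CreER and 9.91 with mock in ST-HSC-derived cells, against 9.82 and 9.83 in LT-HSC-derived cells. The STAT5-induced genes Cish and Osm lay the other way, with Cish lower in ST-HSC-derived cells by 1.10 with mock and by 0.18 with CreER. Osm, which encodes oncostatin M, was lower by 1.29 with mock and by 0.92 with CreER. Pim1 and Socs2, also STAT5-induced, differed by -0.19 and -0.37 with CreER and by -0.14 and -0.44 with mock.

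Slco4c1 encodes an organic anion transporter. It was at 10.23 with CreER and 9.70 with mock in ST-HSC-derived cells, against 9.04 with CreER and 8.004 with mock in LT-HSC-derived cells, the last of these just under the floor. The fold differences were 2.28 with CreER and 3.24 with mock. Of 14 other measured transporters of the family, 12 were under the floor on all 4 arrays. The remaining ones, Slco3a1 and Slco4a1, were lower in ST-HSC-derived cells, by 0.09 and 0.69 with CreER and by 0.31 and 0.36 with mock.

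Tifab encodes a forkhead-associated domain protein related to TIFA that restrains TRAF6 signalling. It was at 10.68 with CreER and 11.06 with mock in ST-HSC-derived cells, against 9.65 with CreER and 9.39 with mock in LT-HSC-derived cells. All 4 levels were past the floor, and ST-HSC mock was the highest. Its relative Tifa, an adaptor that activates TRAF6, showed a smaller difference of the same sign, 0.33 with CreER and 0.70 with mock. Tifa was at 9.70 with CreER and 10.15 with mock in ST-HSC-derived cells, against 9.37 and 9.45 in LT-HSC-derived cells. Traf6 itself differed by -0.05 with CreER and -0.06 with mock. The kinase genes Irak1 and Map3k7 and the gene of their partner Tab2 also differed by less than 0.1 in both transductions.

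Ap1s2 encodes a small subunit of the AP-1 adaptor complex, which is unrelated to the transcription factor of that name and sorts cargo into clathrin-coated vesicles at the trans-Golgi network and endosomes. It was at 9.66 with CreER and 9.31 with mock in ST-HSC-derived cells, against 8.14 with CreER and 8.27 with mock in LT-HSC-derived cells. The LT-HSC levels were just past the floor. The alternative small subunits Ap1s1 and Ap1s3 were higher in ST-HSC-derived cells by 0.25 and 0.22 with CreER and by 0.35 and 0.25 with mock. The large subunit genes Ap1g1 and Ap1b1 differed by 0.22 and 0.07 with CreER and by 0.34 and 0.03 with mock. None of the 11 other adaptor genes measured, of which 10 passed the floor on an array, was 2-fold different. The shares over all genes were 0.402% to 2.72%, so nothing is read from this count.

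Scel encodes sciellin, a precursor of the cornified envelope of stratified epithelia. Its level was 9.33 with CreER and 9.36 with mock in ST-HSC-derived cells, against 7.59 with CreER and 7.82 with mock in LT-HSC-derived cells. Both LT-HSC levels stood under the floor, and the transductions lay close together in each population. Of 10 other cornified envelope genes measured, 8 were under the floor on all 4 arrays, among them the envelope genes Ppl and Ivl and the keratin genes Krt1 and Krt10. Tgm1, a transglutaminase gene, was well expressed and lay the other way, at 9.99 with CreER and 9.44 with mock in ST-HSC-derived cells, against 10.82 and 11.28 in LT-HSC-derived cells. Of 8 epithelial markers, 5 were under the floor on all 4 arrays, including Epcam, Krt18, Krt5 and Krt14. Krt8 was past the floor on all 4 arrays, at 8.24 to 8.40. Cdh1, which encodes E-cadherin, was also past it and was at 9.94 with CreER and 9.67 with mock in ST-HSC-derived cells, against 11.27 and 11.78 in LT-HSC-derived cells.

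**Figure D1:**
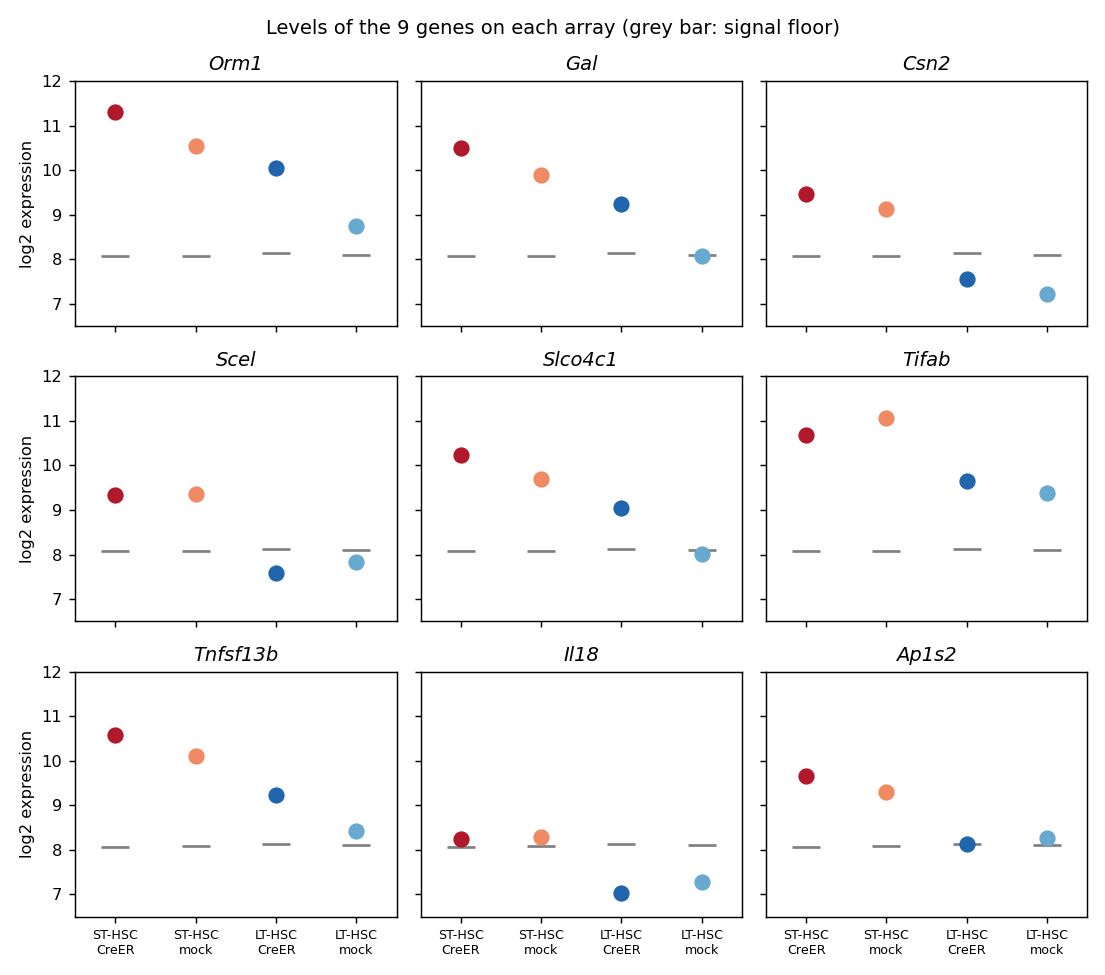
Log2 expression of each of the 9 genes (vertical axis) on the 4 arrays, with the signal floor of each array as a grey bar; each point is 1 array. Both ST-HSC arrays lie above both LT-HSC arrays in every panel, as the choice of genes requires. Csn2, Scel and Il18 are under the floor on both LT-HSC arrays.

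Across the 9 systems, 100 genes were listed besides the 9 themselves, of which 92 were measured and 53 passed the floor on at least 1 array. Of these 53, 0 were 2-fold higher in ST-HSC-derived cells in either transduction, beside 0.549% of genes past the floor with CreER and 0.402% with mock. The 2-fold lower ones were 1 with CreER and 4 with mock, beside 1.39% and 2.72%. With shares this small and 53 genes, nothing is read from these counts. The median difference of the 92 was -0.04 with CreER and 0.01 with mock, beside -0.04 and 0.03 over all genes.

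**Figure D2:**
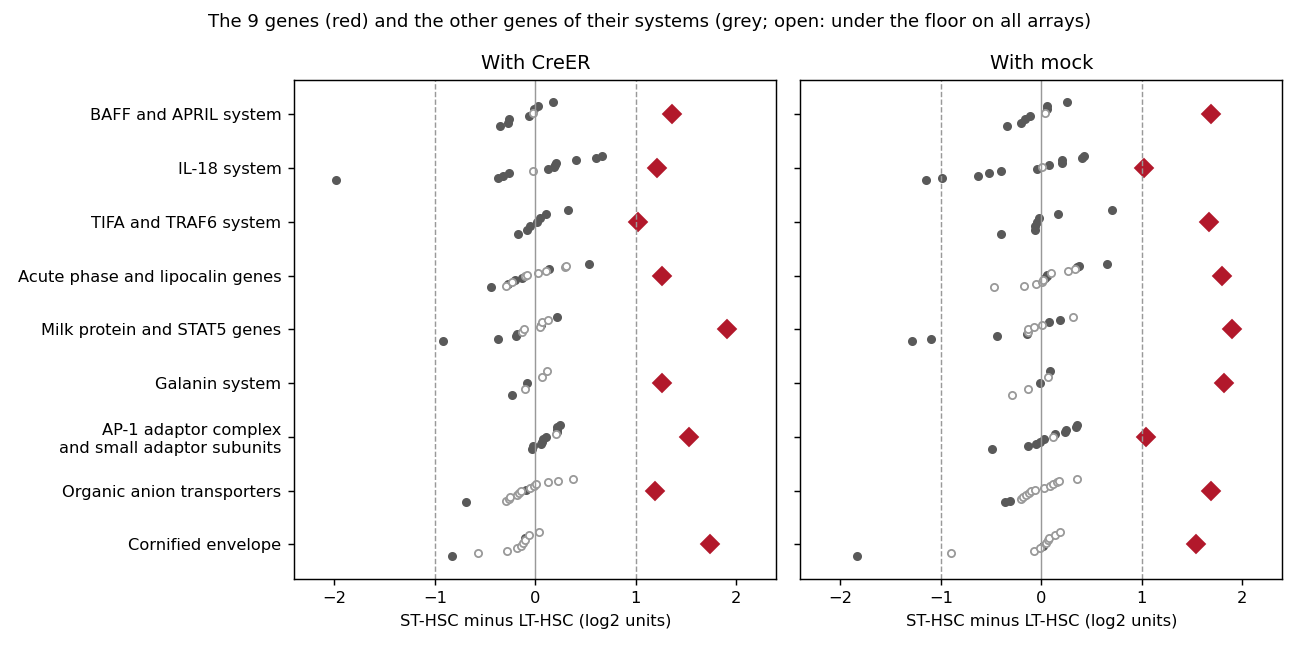
ST-HSC minus LT-HSC differences in log2 units, with CreER (left) and with mock (right), of the 9 genes (red diamonds) and of the other measured genes of each system (grey; open circles were under the floor on all arrays). Dashed lines mark 2-fold. The red diamonds were chosen for lying past the right-hand line, and none of the 92 grey genes does so.

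The protein-coding genes next to the 9 on the chromosome, in the order of the RefSeq table, were looked up as well. Of 18 such neighbours 17 were measured, and 10 of these were under the floor on all 4 arrays. Their ST-HSC minus LT-HSC differences ran from -0.47 to 0.45 with CreER and from -0.23 to 0.37 with mock, all short of the 2-fold differences of the 9. Mycbp2, next to Scel, was at 11.44 with CreER and 11.56 with mock in ST-HSC-derived cells, against 10.99 and 11.19 in LT-HSC-derived cells. Csn1s1 and Csn1s2a, which flank Csn2, and Orm3, which lies next to Orm1, were among those under the floor.

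The CreER minus mock difference is not the contrast that chose the genes, but it is built from the same 4 arrays and is therefore not free of the choice. Orm1, Gal, Slco4c1 and Tnfsf13b were higher with CreER in both populations, and more so in LT-HSC-derived cells. Orm1 was higher with CreER, by 0.76 in ST-HSC-derived and by 1.30 in LT-HSC-derived cells. For Gal the values were 0.62 and 1.18, for Slco4c1 0.53 and 1.04, and for Tnfsf13b 0.48 and 0.81. Csn2 was higher with CreER by nearly the same amount in each population, 0.33 in ST-HSC-derived and 0.32 in LT-HSC-derived cells. Scel and Il18 were slightly lower with CreER in both, by 0.03 and 0.05 in ST-HSC-derived and by 0.23 and 0.24 in LT-HSC-derived cells. Csn2, Scel and Il18 were under the floor on both LT-HSC arrays, and Gal and Slco4c1 on the LT-HSC mock array. The LT-HSC differences of these genes are uncertain in size, and so is the likeness of the 2 Csn2 values. Tifab and Ap1s2 had opposite signs in the populations, with Tifab at -0.39 in ST-HSC-derived and 0.26 in LT-HSC-derived cells and Ap1s2 at 0.35 and -0.13.

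In LT-HSC-derived cells 3 of the 9 genes, namely Orm1, Gal and Slco4c1, were 2-fold or more higher with CreER, beside 0.108% of 10173 genes, and 0 were 2-fold lower, beside 0.767%. The choice of genes favoured low levels on both LT-HSC arrays, which this difference uses with opposite signs, so this count is not independent of the choice. In ST-HSC-derived cells 0 of the 9 were 2-fold higher with CreER, beside 0.438% of 10047 genes, and 0 were 2-fold lower, beside 0.0796%. The median of the 9 was 0.35 in ST-HSC-derived and 0.32 in LT-HSC-derived cells, beside -0.01 and 0.04 over all genes.

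Population and transduction were fitted as additive terms with limma to all 4 arrays and 10411 genes, and the CreER term was tested. In this fit 0 of the 9 genes reached an adjusted p (Benjamini-Hochberg) under 0.05, beside 0.0% of the genes fitted. At an unadjusted p under 0.05 there were 5 of the 9 genes, beside 10.1% of the genes fitted; since the 9 were chosen on the same arrays, nothing is read from this count. Orm1 had a CreER estimate of 1.03 ± 0.15 (SE), Gal 0.90 ± 0.15, Slco4c1 0.78 ± 0.14 and Tnfsf13b 0.64 ± 0.12, each with an adjusted p of 0.316 in limma, the smallest of any gene. Csn2 followed at 0.33 ± 0.09, with an adjusted p of 0.389 in limma. The estimates of Ap1s2, Tifab, Scel and Il18 lay between -0.15 and 0.11, with limma adjusted p-values of 0.675 to 0.933. The fit has 1 residual degree of freedom a gene, which is the difference between the populations in CreER minus mock. Its p-values rest on that difference and on a prior variance drawn from all genes, not on replicate arrays.

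**Figure D3:**
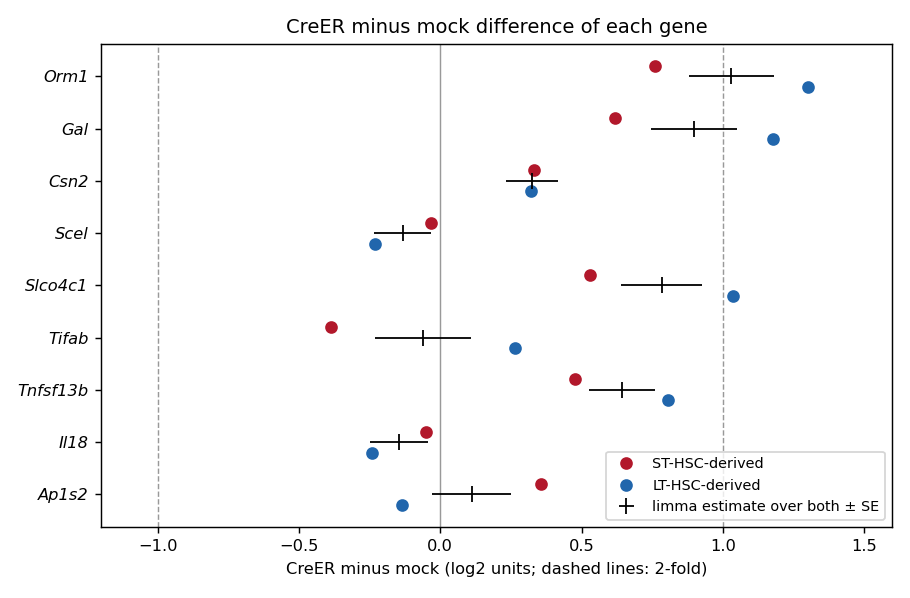
CreER minus mock differences in log2 units for each of the 9 genes in ST-HSC-derived (red) and LT-HSC-derived (blue) cells, each point a difference of 2 arrays, with the limma estimate over both populations and its standard error in black. Orm1, Gal and Slco4c1 pass the dashed 2-fold line in LT-HSC-derived cells, and Tifab and Ap1s2 have points on both sides of 0.

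The profiles of the 9 genes were also compared whole, from the same 4 values as the differences above. The distance between 2 genes was taken as the Euclidean distance of their log2 values over the 4 arrays after centring each gene on its own mean. Orm1 and Gal lay closest of all pairs, at 0.13, followed by Gal and Slco4c1 at 0.15 and Slco4c1 and Tnfsf13b at 0.19. Il18 and Scel each lay closest to Ap1s2, at 0.34 and 0.46, and Tifab to Il18, at 0.49. Orm1 and Il18 were the furthest apart, at 1.30.

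Among all other named genes with a level past the floor on any array, the histone gene H3c15 was the nearest to Orm1 (0.21), Gal (0.26), Slco4c1 (0.29) and Tnfsf13b (0.47). H3c15 was at 9.58 with CreER and 8.88 with mock in ST-HSC-derived cells, against 8.59 and 7.21 in LT-HSC-derived cells. Il18 had its nearest gene in Hnmt, which encodes histamine N-methyltransferase, at a distance of 0.06. Hnmt was at 9.16 with CreER and 9.12 with mock in ST-HSC-derived cells, against 7.91 and 8.15 in LT-HSC-derived cells. Tifab was nearest to Pid1 (0.34), Csn2 to Mir142 (0.37), Scel to Mir181b-1 (0.28) and Ap1s2 to Mir15a (0.25). Nearest to the mean profile of the 9 were Mir15a (0.27), Tmem53 (0.42), the cytokine gene Il15 (0.44), Tmem216 (0.52) and the myeloid receptor gene Treml4 (0.61). With 4 arrays many genes can lie this close, and nothing about shared control follows from it.

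The other genes past the floor on both ST-HSC arrays that met the same 2-fold rule were Mir142, Mir15a and Clec4a1. The Mir142 probe set was at 10.33 with CreER and 10.46 with mock in ST-HSC-derived cells, against 8.43 and 8.28 in LT-HSC-derived cells. Mir15a was at 9.97 with CreER and 9.62 with mock, against 8.62 and 8.40 in LT-HSC-derived cells. Whether these probe sets report the mature microRNA or its longer precursor was not tested. Clec4a1, a C-type lectin receptor gene of myeloid cells, was at 8.52 with CreER and 9.12 with mock in ST-HSC-derived cells, against 7.26 and 7.93 in LT-HSC-derived cells. Mir181b-1 was also more than 2-fold higher, by 1.56 with CreER and 1.74 with mock. It was not counted because its ST-HSC CreER level, 7.88, was under the floor, as were both of its LT-HSC levels. Just inside the 2-fold threshold, the smaller of the 2 ST-HSC minus LT-HSC differences was 1.02 for Il18, 1.02 for Tifab and 1.04 for Ap1s2. Just outside it were Fabp7 at 0.996, H3c15 at 0.991 and Hnmt at 0.977, so the line through this ranking falls between genes that hardly differ. Il18 and Tifab were under 2-fold when the values were normalized by quantile or cyclic loess.

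Markers of several cell types differed between the arrays. Mast cell and basophil markers were lower in ST-HSC-derived cells, with 6 of 9 at least 2-fold lower with CreER and 9 of 9 with mock. Their mean level was 9.58 with CreER and 9.11 with mock in ST-HSC-derived cells, against 11.18 and 11.68 in LT-HSC-derived cells. All 4 measured megakaryocyte markers were at least 2-fold lower in ST-HSC-derived cells in both transductions, with means of 9.41 and 8.91 in ST-HSC-derived cells, against 11.08 and 10.84 in LT-HSC-derived cells, for CreER and mock in each case. Monocyte and macrophage markers had means of 11.09 with CreER and 11.34 with mock in ST-HSC-derived cells, against 10.79 and 11.17 in LT-HSC-derived cells. Of these 8 markers only Ccr2, with mock, was 2-fold higher in ST-HSC-derived cells. Eosinophil markers had means of 10.36 with CreER and 9.53 with mock in ST-HSC-derived cells, against 10.80 and 10.65 in LT-HSC-derived cells. Of these 6 markers, Prg2, Prg3 and Epx were 2-fold or more lower in ST-HSC-derived cells with mock, and 4 were 2-fold or more higher with CreER than with mock in ST-HSC-derived cells. All 10 neutrophil granule and maturation markers were past the floor, with means of 13.40 with CreER and 12.74 with mock in ST-HSC-derived cells, against 13.03 and 12.95 in LT-HSC-derived cells. Of the 10, 10 were higher in ST-HSC-derived cells with CreER and 7 with mock, and only Mmp9 passed 2-fold, by 1.43 with CreER. The granule genes Ltf and Camp were higher by 0.40 and 0.27 with CreER and by 0.61 and 0.82 with mock. Cxcr2 and Retnlg were lower in ST-HSC-derived cells with mock, by 1.79 and 1.82. Mmp9, Cxcr2 and Retnlg were also 2-fold or more higher with CreER than with mock in ST-HSC-derived cells. Primary granule markers ranged from 13.04 on the LT-HSC mock array to 13.55 on the LT-HSC CreER array. Of the B cell markers 4 of 5, and of the T cell markers 5 of 5, were under the floor on all 4 arrays. In bulk RNA, fewer cells of a type and less RNA per cell cannot be told apart, and the part of these marker shifts in the levels of the 9 genes was not tested.

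**Figure D4:**
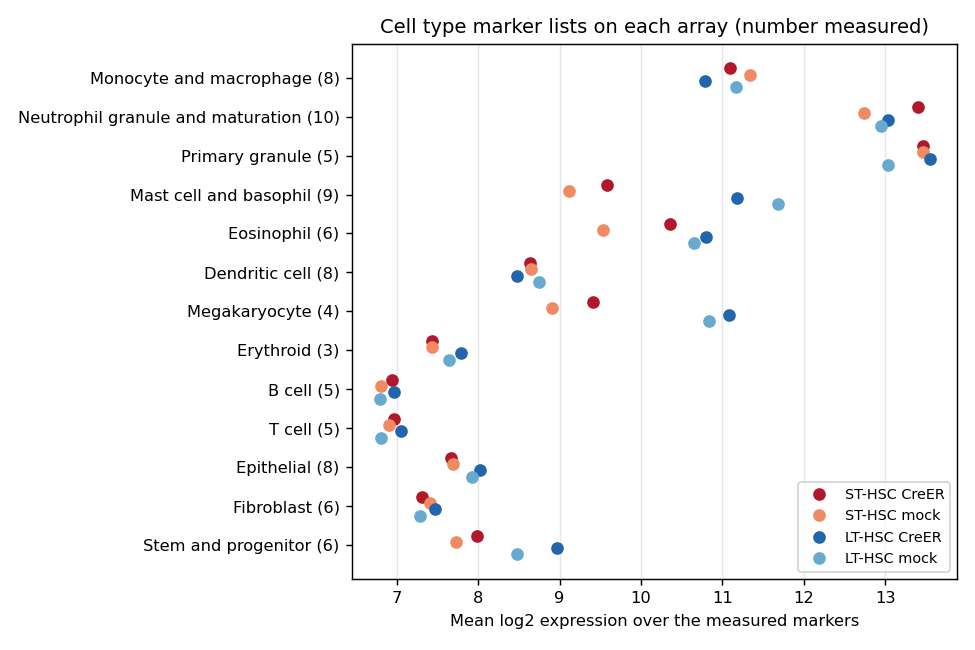
Mean log2 expression of each cell type marker list (number of measured markers in brackets) on the 4 arrays; each point is 1 array. The ST-HSC arrays lie furthest to the left of the LT-HSC arrays for mast cell and basophil and for megakaryocyte markers. They also lie to the left, by less, for stem and progenitor, eosinophil, erythroid and epithelial markers. The 4 arrays lie close together for B cell, T cell and fibroblast markers.

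Of 6 measured stem and progenitor markers, Cd34 and Meis1 were 2-fold or more lower in ST-HSC-derived cells in both transductions. Cd34 was at 8.60 with CreER and 7.87 with mock in ST-HSC-derived cells, against 10.82 and 9.69 in LT-HSC-derived cells, and Meis1 at 7.59 and 7.10 against 9.11 and 8.37. Meis1 was under the floor on both ST-HSC arrays and Cd34 on the ST-HSC mock array. Differences that involve these levels are uncertain in size. Kit differed by -0.32 with CreER and -0.40 with mock, and Procr had the opposite sign, at 0.14 and 0.35. Slamf1 and Mecom, which mark long-term stem cells, were under the floor on all 4 arrays. Cd34 shared with Orm1 and Gal a higher level with CreER in both populations, by 0.73 in ST-HSC-derived and 1.13 in LT-HSC-derived cells, while its ST-HSC minus LT-HSC difference had the opposite sign.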

How the data were processed

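Per probe set, the authors deposited 1 value for each array, taken as log2 expression because the values span 2.21 to 14.82. The submitters' processing notes name Affymetrix Expression Console, without a version; how values were summarised and normalized is not given in the sources used. The 4 columns had array medians of 7.75 to 7.82 and were used as deposited. Of 35556 probe sets, 21789 had 1 gene symbol in the platform annotation, 1621 had several and 12146 had none here. A gene with several probe sets was represented by its brightest, which gave 19938 genes. Array summaries compress differences near background, so differences that involve levels under the floor are uncertain.

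Differences of 2 arrays were counted by size, with no p-value. The CreER term was tested with limma 3.58.1 under R 4.3.3 (functions lmFit and eBayes, 4.27 prior degrees of freedom), with Benjamini-Hochberg adjustment over the 10411 genes whose level passed the floor on any array. The fit was tested on simulated data with independent noise drawn from its own prior. The simulated CreER difference was the same in both populations, and no population difference was put in. There it recovered 47 of 50 genes with a CreER difference of 1 log2 unit, and 50 of 50 with a difference of 2. These settings differ from the real arrays, so the recovery shows that the fit runs properly and does not give its power here. Nothing in the labels says that arrays come from separate animals. The p-values rest on how far CreER minus mock differed between the populations and on the prior, and say nothing about the spread between animals.

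The 9 genes, the lists of related genes and markers, and the rules for named genes were chosen with earlier results of these data known. Named were the 9 genes, members of 9 lists of related genes, the 5 genes nearest to the mean profile, the nearest gene to each of the 9, and the genes around the threshold. Olfactory and vomeronasal receptors were not named, nor were gene models that lack a proper symbol. Alternatives were quantile and cyclic loess normalization, median centring, the mean of a gene's probe sets, fold thresholds of 1.5 and 3, no floor or the 75th percentile as floor, and, for the fit, an adjusted p of 0.1 and a prior variance that follows the mean level.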

Additional observations from a re-analysis of the deposited data

Results flagged for a closer look

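For Tifab the CreER minus mock difference had opposite signs in the populations, -0.39 in ST-HSC-derived and 0.26 in LT-HSC-derived cells. Ap1s2 had opposite signs the other way round, 0.35 in ST-HSC-derived and -0.13 in LT-HSC-derived cells. Each value is a difference of 2 single arrays, and the difference between the populations was not tested.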

How the results depend on the processing

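With the floor at the 75th percentile, 3 of the 9 genes and 4 genes in all met the 2-fold rule towards ST-HSC with both transductions, against 9 and 12 as reported, and 1 CreER difference of the 9 genes was 2-fold, against 3. A 1.5-fold threshold gave 109 genes in all and 6 CreER differences of the 9. A 3-fold threshold gave 1 of the 9 (Csn2), 2 genes in all and 0 CreER differences. Tifab and Il18 dropped just under 2-fold with quantile and with cyclic loess normalization, which left 7 of the 9. Median centring gave 18 genes in all. No other alternative moved these counts by more than 1.5 times. In limma, 0 of the 9 genes passed under any of the 8 alternatives of the fit, with a smallest adjusted p among them of 0.200. The 36 single differences moved by at most 0.09 under 4 alternatives, and no sign of a 2-fold difference turned. The labels give no replicate numbers, so arrays could not be paired by replicate. The fit has population as a term, which pairs CreER with mock within each population. With 1 array a group, no array could be left out.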
